A study of Mus musculus with 11 samples.

Results

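The genes described here were listed for carrying retinol (vitamin A), for its conversion steps, or for the response to its active form. They were chosen by symbol from a list of 9 retinoid genes (Rbp4, Rbp7, Stra6, Adh1, Rdh10, Dhrs3, Aldh1a1, Aldh1a7 and Rarb), and 8 of the 9 were among the 15453 genes with values in every mouse. Rdh10, a retinol dehydrogenase, was not analysed here. The list was drawn up knowing that Rbp4 was higher in knockout mice, so the genotype differences of its genes are a description, as are the counts of them past a threshold, and no p-value is given for any of them. The values are from epididymal white adipose tissue (eWAT), the visceral fat pad beside the epididymis, of 11 male C57BL/6J mice that were put on a high fat diet at 8 weeks of age and killed at 16 weeks. In 6 wildtype (WT) mice both Mest alleles were intact. In 5 pKO mice the allele inherited from the father lacked Mest exon 3, and since Mest (mesoderm specific transcript) is imprinted and read from the paternal allele, an inactivated paternal copy leaves little working transcript. Both genotypes came from crosses of WT females with males heterozygous for the inactivated allele. The paper selected these mice from a larger diet cohort. It reports a significantly higher adiposity index (fat mass over lean mass) in the WT than in the pKO mice profiled. Genotype and adiposity thus differed together, and the part of adiposity in the differences below was not tested. The deletion was made with an EIIa-cre transgene and is carried by every tissue, so it is not restricted to adipocytes, and each library came from eWAT RNA of a single mouse, with all the cell types of that tissue. Expression was measured with SAGE (serial analysis of gene expression), which counts a short tag taken from each transcript at the last NlaIII site (CATG) before its 3' end. The unit throughout is the normalised tag, a tag count divided by the size factor of its library, and as each transcript gives 1 tag whatever its length, levels can be set side by side between genes. This holds only as far as the transcripts of a gene end with the tags that were counted.

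Retinol travels in blood bound to RBP4, which is made mostly by the liver and also by adipocytes, and the membrane protein STRA6 takes retinol up from RBP4 into cells. Inside the cell, retinol is bound by small carrier proteins such as RBP7, is oxidised reversibly to retinal by alcohol and retinol dehydrogenases and irreversibly to retinoic acid by retinal dehydrogenases, and retinoic acid acts through the nuclear receptors RAR and RXR. White fat stores retinol as retinyl esters. RBP4 released by fat is known for its link to insulin resistance, and in mice lacking the glucose transporter GLUT4 (Slc2a4) in fat its expression is raised. In another cohort on a high fat diet, the paper reports better glucose and insulin tolerance in pKO than in WT mice. How Rbp4 levels relate to that tolerance was not tested.

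The tags that stand for Rbp4 and for the neighbouring pair Aldh1a1 and Aldh1a7 are shown because the largest difference lies in the first and because the other 2 are nearly alike. They were read from transcripts of GENCODE release M21 on GRCm38, the assembly also called mm10, which the submitters' processing notes name. Each begins with the CATG of the NlaIII site in capitals, followed by 23 bases in lower case, 5' to 3' on the transcript's strand.
Rbp4: CATGagagtcactgactctgttcacac
Aldh1a1: CATGcctgcttgtcaaatgaaatgcct
Aldh1a7: CATGactgcttgtcaaatgaaatgcct
The Rbp4 tag lies at chr19:38116711-38116737 on the minus strand, in the 3' UTR within exon 6 of 6, and 2 of the gene's 4 annotated transcripts end with it. The Aldh1a1 tag is at chr19:20643391-20643417 on the plus strand and the Aldh1a7 tag at chr19:20692999-20693025 on the minus strand, both in the 3' UTR within exon 13. These 2 tags differ only by C5A, with Aldh1a1 as the first base and positions counted from 1 at the 5' end. In both transcripts a later CATG begins 5 or 6 bases before the annotated end, so the annotated sequence holds no tag of 27 bases from it. The 2 tags shown are those of the last site that has 27 annotated bases. As cDNA was primed at the poly(A) tail, the later site may have been the one cut, with a tag that runs into the tail. Which of the sites was counted is not known here. None of the 3 tags was found at a CATG site of any other gene's transcripts. How many mismatches the tag mapping allowed is not given in the sources used here, so tags of Aldh1a1 and Aldh1a7 may have been exchanged and the values of each are uncertain. The tags of Stra6, Adh1, Dhrs3 and Rarb also fell in the 3' UTR. They end 4 of 14, 2 of 4, 1 of 7 and 1 of 7 of the annotated transcripts, in that order. The Rbp7 tag, CATGctggccctgggtattgactttgc, is shown because it crosses an exon junction in the coding sequence, from 149453522 to 149454891 on chromosome 4, and only 1 of the 3 annotated transcripts ends with it.

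The WT libraries held between 9659740 and 14825727 tags and the pKO libraries between 11320342 and 14626803, without a difference in depth beyond the spread (two-sided exact permutation test, p = 0.827). Mest averaged 25107 ± 2672 normalised tags in the 6 WT mice and 1663 ± 566 in the 5 pKO mice (means ± SD), 15.1-fold lower in the latter with no overlap (log2 difference -3.99, standard error 0.22, limma adjusted p = 1.2e-06). The Mest tag lies in exon 12 of 12, outside the deleted exon, so it checks the amount of transcript and not the deletion itself. All 8 adipocyte markers listed (Adipoq, Lep, Plin1, Cidec, Fabp4, Retn, Pparg and Cfd) were present, with summed levels of 674038 to 1083374 in WT and 724209 to 1103257 in pKO mice. Most of each sum was Fabp4, with means of 655817 in WT and 698530 in pKO mice. Of the 8, 7 had the higher mean in pKO mice, while Lep had means of 51503 in WT and 36606 in pKO mice. None of the 8 passed an unadjusted limma p of at most 0.05. Over all genes, limma placed 4.2% higher and 5.35% lower in pKO mice at an unadjusted p of at most 0.05, and 5 genes in all, or 0.0324%, at a Benjamini-Hochberg adjusted p of at most 0.1.

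Rbp4, on chromosome 19 from 38116629 to 38125281, had the highest mean of the 8 genes, and 96.1% of all genes had a lower one. In WT mice 1 to 6 its normalised tags were 2010, 435, 2462, 3375, 710 and 2497. In pKO mice 1 to 5 they were 5183, 3957, 7435, 5122 and 1929. In 4 of the 5 pKO mice Rbp4 was thus above every WT mouse, whereas pKO 5 lay within the WT range and below the WT median of 2236. The WT mean was 1915 ± 1133 (SD, n = 6) and the pKO mean 4725 ± 2007 (SD, n = 5), that is 2.47-fold higher in the latter, or 1.50 on the log2(value + 1) scale (standard error 0.50). When single mice were left out, the ratio of the means ranged from 2.11 to 2.91, and the log2 difference from 1.13 without WT 2 to 1.79 without pKO 5. As the libraries are from tissue and not from sorted cells, more cells of a type and more RNA per cell cannot be told apart in these values, for Rbp4 or for any gene below.

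**Figure D1:**
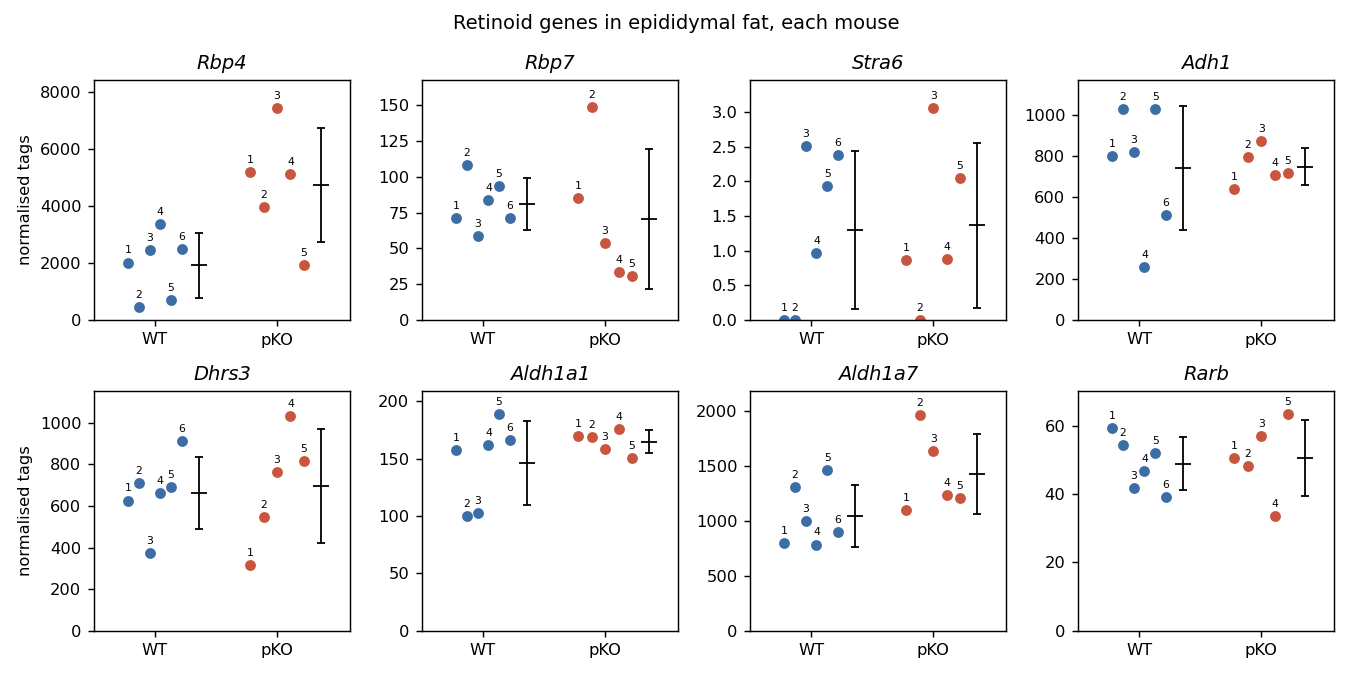
Normalised tags (y axes, linear and from 0, with a scale for each gene) of the 8 retinoid genes in each WT mouse (blue, 1 to 6) and each pKO mouse (red, 1 to 5), with the mean and SD of each genotype as a bar beside the points. Rbp4 in pKO mice 1 to 4 lies between 3957 and 7435, above the highest WT value of 3375, while the genotypes overlap in every gene shown.

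Rbp4 also differed widely among mice of the same genotype. Its highest WT value was 7.76 times the lowest, and the coefficient of variation (CV, SD over mean) was 59.2% in WT mice, where counting error alone would give 2.25%. Of the 9727 genes with a mean of at least 50 normalised tags, 99.2% had a lower CV among WT mice, for which the median gene had 15.4%. In pKO mice the ratio of highest to lowest was 3.85 and the CV 42.5%, above that of 88.4% of the same genes (median 23.0%). Without pKO 5 they were 1.88 and 26.8%. The low mice were WT 2, WT 5 and pKO 5.

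Some markers of other cell types differed between genotypes in the same mice. Over all genes, limma placed 4.2% higher and 5.35% lower in pKO mice at an unadjusted p of at most 0.05. Of 6 mesothelial cell markers, 3 were higher in pKO mice at an unadjusted p of at most 0.05 (Msln, Upk1b and Krt19), and the summed level of the 6 was 1158 to 1589 in WT and 1387 to 2683 in pKO mice. Of 5 stromal progenitor markers, 2 were higher (Dpp4 and Dcn), with sums of 24223 to 31909 in WT and 30203 to 39753 in pKO mice. Most of each sum was Dcn, with means of 21572 and 27841. Only 3 of the 5 had the higher mean in pKO mice, and Pi16 had means of 554 in WT and 370 in pKO mice. Of 7 macrophage markers 2 were lower (Itgax and Cd14), with sums of 3273 to 4674 and 2901 to 4098. Of 4 endothelial cell markers 1 was higher (Kdr), with sums of 3635 to 5192 and 3830 to 5116. Kdr and Cdh5 had the higher mean in pKO mice, Pecam1 and Tek in WT mice. None of 4 lymphocyte markers was called, and the 2 of 5 markers of epididymal epithelium in the tables (Adam7 and Rnase10) summed to 1.83 to 36.7 and 1.15 to 43.8. Of 5 hepatocyte markers 1 was higher. This was Alb, which encodes albumin, with a log2 difference of 1.61 (standard error 0.33) and a 3.04-fold higher mean in pKO mice. It ranged from 184 to 533 normalised tags among WT and from 491 to 1529 among pKO mice, whereas Apoa1, Apoa2, Ahsg and Fgb lay between 0 and 42.4 in every mouse. Ttr, which encodes the plasma partner of RBP4 and is abundant in liver, had WT values of 1.47 ± 1.59 (SD, n = 6) and pKO values of 2.99 ± 5.35 (SD, n = 5). The part of the adipocyte, mesothelial, stromal, macrophage and endothelial markers and of Alb in the Rbp4 difference was not tested.

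Rbp7, a retinol-binding protein of adipocytes and endothelial cells, lies on chromosome 4 from 149449687 to 149454978. Its values were 71.3, 108, 58.5, 83.5, 93.6 and 71.2 in WT mice 1 to 6 and 85.0, 149, 53.9, 33.5 and 30.7 in pKO mice 1 to 5. The pKO mice fell on both sides of the WT range, with pKO 2 above it, pKO 3, 4 and 5 below it and pKO 1 inside it. The means were 81.1 ± 18.0 (SD, n = 6) and 70.4 ± 49.0 (SD, n = 5), with a log2 difference of -0.42 (standard error 0.35) that ran from -0.76 without pKO 2 to -0.19 without pKO 5. The CV was 22.2% in WT and 69.5% in pKO mice, and 98.5% of genes with a mean of at least 50 had a lower CV among the pKO mice.

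Stra6, the receptor that takes retinol from RBP4, was at the limit of detection in this fat. It lies on chromosome 9 from 58063788 to 58153996, and 0 to 3 tags were counted in each library, or 15 in all 11. The 15 tags made it one of the genes with the fewest tags in the tables. A gene is called at the floor here when its mean in each genotype was at most 3 tags. Stra6 was at this floor, so a fold between the genotypes is not given, and a difference was not detectable at this depth.

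The enzymes that convert retinol and retinal into each other were moderately abundant. Adh1, an alcohol dehydrogenase that oxidises retinol to retinal, lies on chromosome 3 from 138260991 to 138290698. It was at 798, 1031, 820, 258, 1030 and 514 in WT mice 1 to 6 and at 640, 798, 874, 709 and 716 in pKO mice 1 to 5. All 5 pKO values lay within the WT range. The means were 742 ± 304 (SD, n = 6) and 747 ± 90.4 (SD, n = 5), with a log2 difference of 0.14 (standard error 0.30) that became -0.13 without WT 4. The CV of Adh1 was 41.0% among WT and 12.1% among pKO mice, and 25.4% among WT mice without WT 4. The difference in spread was not tested.

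Dhrs3, which reduces retinal back to retinol and is known to be induced by retinoic acid, lies on chromosome 4 from 144892827 to 144928209. Its values were 627, 710, 374, 663, 691 and 912 in WT and 314, 549, 763, 1033 and 817 in pKO mice. The genotypes overlapped, with both the lowest and the highest of the 11 values in pKO mice. The means were 663 ± 173 (SD, n = 6) and 695 ± 274 (SD, n = 5). The log2 difference of 0.0071 (standard error 0.28) ranged from -0.16 without pKO 4 to 0.27 without pKO 1. Adh1 and Dhrs3 were next to each other in the order of mean levels, and their levels did not differ beyond their spread.

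The retinal dehydrogenase Aldh1a1, which makes retinoic acid from retinal, and its close relative Aldh1a7 lie 49487 bases apart on chromosome 19, Aldh1a1 from 20492715 to 20643465 and Aldh1a7 from 20692953 to 20727562. Aldh1a7 was at 799, 1312, 999, 785, 1460 and 897 in WT mice 1 to 6 and at 1098, 1960, 1635, 1230 and 1205 in pKO mice 1 to 5. All 5 pKO mice were above the WT median of 948, and 3 of them lay within the WT range. The means were 1042 ± 281 (SD, n = 6) and 1426 ± 362 (SD, n = 5), a 1.37-fold difference. On the log2 scale the difference was 0.46 (standard error 0.20), from 0.34 without pKO 2 to 0.56 without WT 5. 

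Aldh1a1 was lower in level, at 157, 100.3, 103, 162, 189 and 166 in WT mice and 170.0, 168, 159, 176 and 150.4 in pKO mice. All pKO values were inside the WT range, in which WT 2 and WT 3 stood lowest. The means were 146 ± 36.3 (SD, n = 6) and 165 ± 10.01 (SD, n = 5), with a log2 difference of 0.21 (standard error 0.18). Among pKO mice the CV of 6.08% was below the 7.68% that counting error alone would give, and only 1.26% of genes with a mean of at least 50 varied less. Summed over the pair, whose tags may have been exchanged, the values ran from 947 to 1649 in WT mice and from 1268 to 2128 in pKO mice, and the pKO mean was 1.34-fold higher. Aldh1a7 exceeded Aldh1a1 in every mouse, from 4.84-fold to 13.1-fold.

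Rarb, a retinoic acid receptor whose gene is itself switched on by retinoic acid, lies on chromosome 14 from 16430839 to 16819156. It was at 59.4, 54.2, 41.8, 46.6, 52.1 and 39.2 in WT mice 1 to 6 and at 50.6, 48.1, 57.0, 33.5 and 63.4 in pKO mice 1 to 5. The genotypes overlapped across almost their whole range. The means were 48.9 ± 7.73 (SD, n = 6) and 50.5 ± 11.2 (SD, n = 5), and the log2 difference was 0.03 (standard error 0.19). It went from -0.06 without pKO 5 to 0.17 without pKO 4. The CV of 15.8% among WT mice was close to the 14.1% of counting error, since only 33 to 65 tags were counted in a library.

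Among the 8 genes, 2 (Rbp4 and Aldh1a7) passed an unadjusted p of at most 0.05 in the limma fit over all genes, where 9.55% of all genes did. None passed an adjusted p of at most 0.1 in limma (over all genes 0.00647% passed as higher and 0.0259% as lower), edgeR or DESeq2, and the latter 2 tools each placed 2 of the 8 at an unadjusted p of at most 0.05. Over all genes at that unadjusted p, edgeR placed 681 of 15453 higher and 693 lower, and DESeq2 739 and 700 of 15427. None had WT and pKO ranges apart, as 1.24% of all genes did (0.569% with pKO mice higher and 0.673% with pKO mice lower). In order of their mean over the 11 mice, Rbp4 (3192), Aldh1a7 (1216), Adh1 (744), Dhrs3 (677), Aldh1a1 (155), Rbp7 (76.2), Rarb (49.6) and Stra6 (1.33) followed each other. Neighbours in this order overlapped between mice, except Dhrs3 and Aldh1a1, and Rarb and Stra6. The rule that chose the genes used the genotype contrast, so the counts of genes called are a description. The median log2 difference was 0.14 over the 7 genes above the floor and -0.0025 over all 15453 genes.

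The 5 genes whose values followed Rbp4 most closely among mice of the same genotype were found from the Pearson correlation of deviations from the genotype mean on the log2(value + 1) scale, over 11 mice and 9726 other genes with a mean of at least 50. They were Ttc32 (r = 0.95), a tetratricopeptide repeat protein, Slc25a44 (r = 0.95), a mitochondrial carrier of branched-chain amino acids, Zmiz1 (r = 0.94), a transcriptional coregulator, Ptdss1 (r = 0.94), which makes phosphatidylserine, and Kremen1 (r = 0.93), a Dickkopf receptor of the Wnt pathway. These are the highest of 9726 correlations among few mice and share the libraries and their scaling, so they are a description. Among the 6 WT mice alone, r was 0.95 to 0.99, and among the 5 pKO mice alone it was lower, at 0.77 to 0.89. Ptdss1 was at 661, 236, 812, 804, 282 and 896 in WT mice 1 to 6 and at 656, 607, 1138, 797 and 582 in pKO mice 1 to 5. As for Rbp4, the lowest WT mice were 2 and 5 and the lowest pKO mouse was 5. Unlike Rbp4, the ranges of all 5 genes in pKO mice lay largely on those in WT mice, with means of 204 and 227 for Ttc32, 715 and 903 for Slc25a44, 1019 and 1082 for Zmiz1, 615 and 756 for Ptdss1, and 78.0 and 81.5 for Kremen1.

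**Figure D2:**
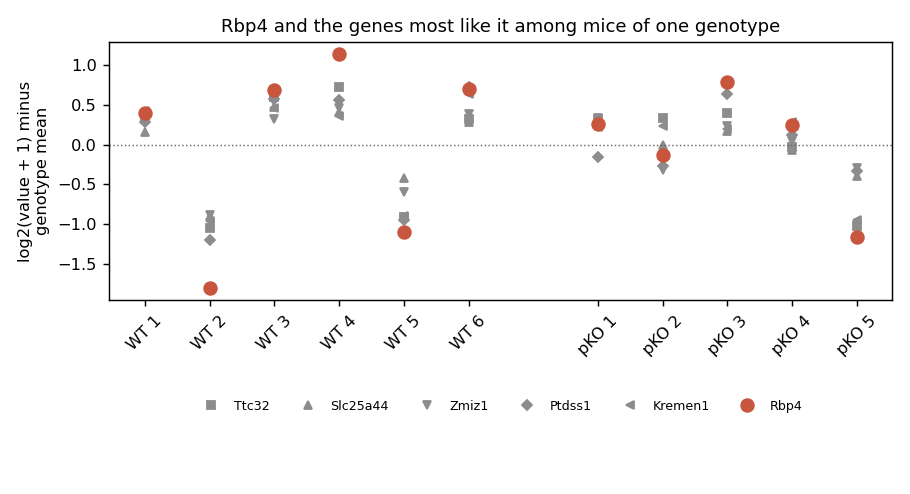
Deviation of log2(value + 1) from the mean of the mouse's own genotype (y axis) in each of the 11 mice (x axis), for Rbp4 (red circles) and the 5 genes most correlated with it (grey symbols). All 6 genes are low in WT 2, WT 5 and pKO 5, and Rbp4 deviates most in the first of these.

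Relations to Rbp4 among WT mice did not involve the genotype contrast and were tested. Over the 6 WT mice, 7 relations were computed, with two-sided exact permutation tests over 720 pairings. Adh1 went in the opposite direction to Rbp4, with r = -0.74 (exact p = 0.0083, adjusted p = 0.058) and rho = -0.94 (exact p = 0.017, adjusted p = 0.12). Without WT 2 and WT 5, the mice farthest from the Rbp4 median, r was -0.91 in the 4 mice left. The relations of Aldh1a7 (r = -0.89, exact p = 0.086, adjusted p = 0.21; rho = -0.77, exact p = 0.10, adjusted p = 0.34) and Rbp7 (r = -0.78, exact p = 0.092, adjusted p = 0.21; rho = -0.60, exact p = 0.24, adjusted p = 0.34) rested on WT 2 and WT 5, since r was -0.20 and 0.55 without them. For Rarb, Dhrs3, Aldh1a1 and Slc2a4, r was -0.53, -0.21, 0.25 and -0.37, with adjusted exact p-values of 0.53 to 0.75, and rho was -0.66, -0.14, 0.31 and -0.60, with adjusted exact p-values of 0.34 to 0.80. None of the 7 relations had an adjusted p at or below 0.05. The relations were not tested among the 5 pKO mice.

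Slc2a4 (GLUT4) was at 655, 590, 617, 586, 714 and 519 in WT mice 1 to 6 and at 1225, 869.8, 809, 748 and 717 in pKO mice 1 to 5. The genotypes did not overlap, by the small margin between 714.0 in WT 5 and 717 in pKO 5, and ranges apart with higher pKO values were found for 0.569% of all genes. The means were 613 ± 66.6 (SD, n = 6) and 874 ± 205 (SD, n = 5). The log2 difference of 0.49 (standard error 0.15) had an adjusted p of 0.37 in limma. Its two-sided exact permutation p of 0.0043 is the smallest that 6 mice against 5 can give.

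Of 58 other genes of retinoid handling, 49 were in the tables. At an unadjusted p of at most 0.05, limma placed 3 of the 49 higher (6.12%) and 2 lower (4.08%) in pKO mice, against 4.2% and 5.35% of all genes. None of the 49 passed an adjusted p of at most 0.1 in limma, where the lowest was 0.295, or in edgeR, which had 6 at an unadjusted p of at most 0.05. DESeq2 had 5 at that unadjusted p and 2 at an adjusted p of at most 0.1. Over all genes at the unadjusted p, edgeR placed 681 of 15453 higher and 693 lower, and DESeq2 739 and 700 of 15427. At the adjusted p, DESeq2 placed 63 higher and 75 lower of the 13937 genes to which it gave one. The median log2 difference over the 47 genes above the floor was 0.044. None of the 49 had ranges apart.

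**Figure D3:**
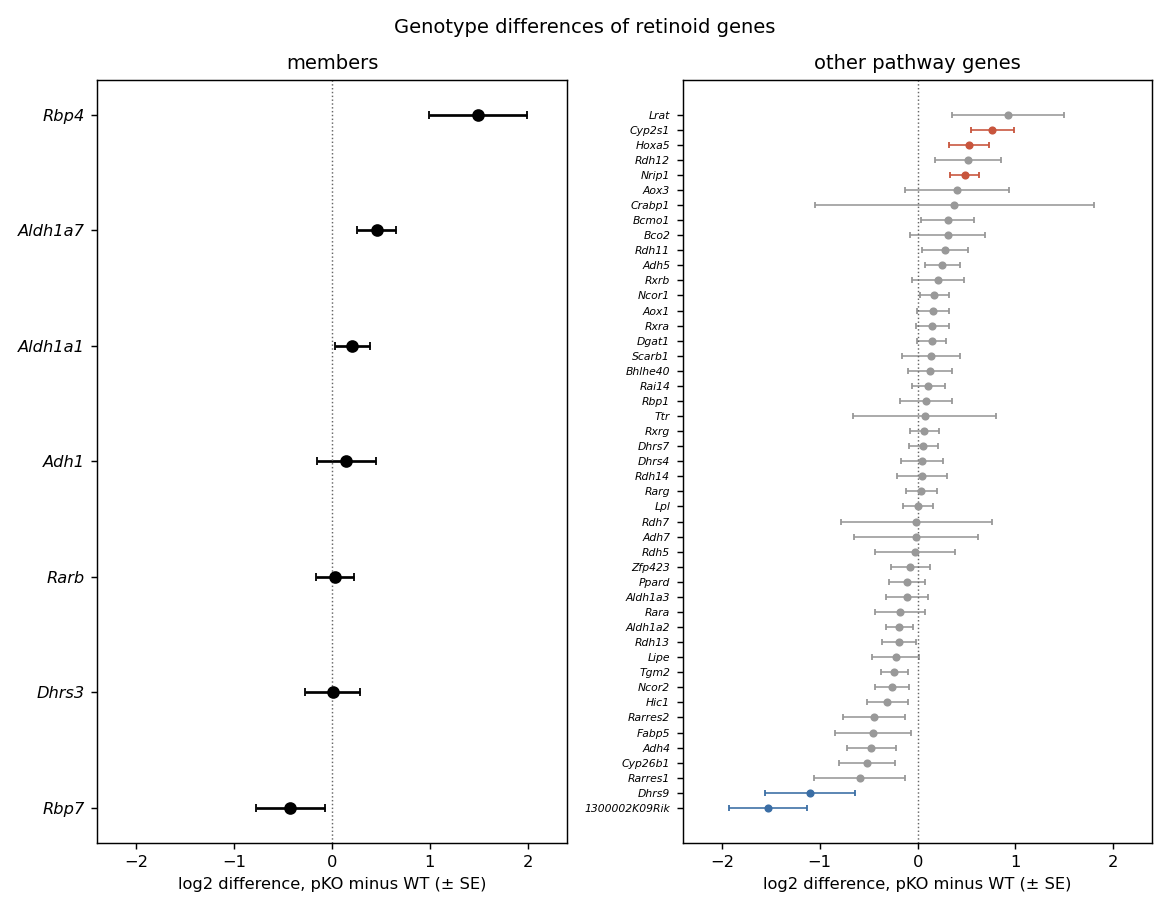
Log2 difference of pKO minus WT mice with its standard error (x axis, log2(value + 1) scale) for the 7 chosen genes above the floor (left) and the 47 other retinoid genes above the floor (right), each in order of its difference. Rbp4 lies farthest from 0 on the left at 1.50. On the right the colours mark genes at an unadjusted p of at most 0.05, 3 higher (red) and 2 lower (blue) in pKO mice.

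Among 6 carrier and receptor genes, 1 was lower in pKO mice. This was 1300002K09Rik, which RefSeq names Stra6l with the synonym Rbpr2, a membrane receptor for RBP4 related to STRA6. It had 30.1, 22.5, 29.3, 28.2, 10.6 and 29.7 normalised tags in WT mice 1 to 6 and 8.58, 11.5, 2.04, 7.94 and 13.3 in pKO mice 1 to 5. Only WT 5 reached into the pKO range. Means of 25.1 ± 7.61 (SD, n = 6) and 8.67 ± 4.30 (SD, n = 5) gave a log2 difference of -1.53 (standard error 0.40, limma adjusted p = 0.30, two-sided exact permutation p = 0.013). The adjusted p was 0.031 in DESeq2 and 0.30 in edgeR, and over all alternatives it ran from 0.031 to 0.60. The size of the difference depended on the scale, at -0.83 with TMM factors and -0.85 with total-count scaling (both as CPM + 1) and -0.91 with a pseudocount of 10. The counts behind it were 2 to 35 tags in a library. Fabp5, a fatty acid-binding protein that also carries retinoic acid, was the most abundant of these 6 genes, with means of 984 and 802. The intestinal carrier Rbp2 was at the floor, with 0 to 10 tags in a library.

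The 4 genes of retinyl ester formation and release and the 3 of carotenoid uptake and cleavage had none at an unadjusted p of at most 0.05. Lpl, the lipoprotein lipase that also frees retinol from retinyl esters of lipoproteins, was the most abundant of the former, with a WT level of 52131 ± 7028 (SD, n = 6) and a pKO level of 52429 ± 7952 (SD, n = 5). Scarb1, a scavenger receptor that takes up carotenoids, led the latter with means of 1632 and 1702.

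Of 12 other genes of retinol and retinal interconversion, 1 was lower. Dhrs9, a retinol dehydrogenase, was at 16.4, 13.3, 10.03, 12.6, 2.89 and 9.50 in WT and at 6.87, 8.02, 5.09, 2.65 and 1.02 in pKO mice, so that WT 5 lay among the pKO values. The log2 difference was -1.10 (standard error 0.46, limma adjusted p = 0.49, two-sided exact permutation p = 0.061) between means of 10.8 ± 4.61 (SD, n = 6) and 4.73 ± 2.90 (SD, n = 5). It was -0.43 with TMM factors, -0.45 with total-count scaling and -0.49 with a pseudocount of 10. It rested on 1 to 18 tags in a library, and the unadjusted limma p was above 0.05 in 6 of the 11 fits that left out a mouse. Dhrs7 was the most abundant of the 12 genes, with means of 1743 and 1852. None of the 4 other genes of retinal oxidation was called, and Aox1, an aldehyde oxidase, was highest among them at 680 and 760.

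Of 3 genes of retinoic acid breakdown, 1 was higher in pKO mice. Cyp2s1, a cytochrome P450 able to oxidise retinoic acid, was at 33.8, 41.9, 40.1, 42.7, 42.5 and 57.0 in WT mice 1 to 6 and at 66.1, 51.6, 62.1, 122 and 79.8 in pKO mice 1 to 5. The overlap came from WT 6 and pKO 2. Its means were 43.0 ± 7.61 (SD, n = 6) and 76.3 ± 27.4 (SD, n = 5), with a log2 difference of 0.77 (standard error 0.22, limma adjusted p = 0.36, two-sided exact permutation p = 0.0087). The adjusted p was 0.091 in DESeq2 and 0.36 in edgeR, with a range of 0.091 to 0.62 over all alternatives. Cyp26a1, the retinoic acid hydroxylase most readily induced by its substrate, was at the floor, with 0 to 11 tags in a library.

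Of 9 receptors and their partners, 1 was higher. Nrip1, a corepressor that binds retinoid and other nuclear receptors in fat, was at 491, 707, 472, 530, 554 and 447 in WT and at 898, 816, 685, 604 and 713 in pKO mice. WT 2 was the single WT mouse within the pKO range. Between means of 533 ± 93.4 (SD, n = 6) and 743 ± 115 (SD, n = 5) the log2 difference was 0.48 (standard error 0.15, limma adjusted p = 0.37, two-sided exact permutation p = 0.013), with adjusted p-values of 0.16 to 0.62 over all alternatives. The receptor Rxra, partner of RAR and PPARγ, was the most abundant of the 9, with means of 1837 and 2080.

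Of 8 genes known to respond to retinoic acid, 1 was higher and their median log2 difference was -0.16. Hoxa5, a homeobox gene, was at 87.7, 103, 100.3, 141, 154 and 118 in WT and at 256, 166, 139, 130 and 164 in pKO mice, with overlap between 130 and 154. Its means were 117 ± 25.6 (SD, n = 6) and 171 ± 49.9 (SD, n = 5), with a log2 difference of 0.52 (standard error 0.20, limma adjusted p = 0.45, two-sided exact permutation p = 0.039). Tgm2, a transglutaminase, was the most abundant of the 8, with a WT level of 5122 ± 799 (SD, n = 6) and a pKO level of 4315 ± 494 (SD, n = 5) (log2 difference -0.24, standard error 0.14, limma adjusted p = 0.61).

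**Figure D4:**
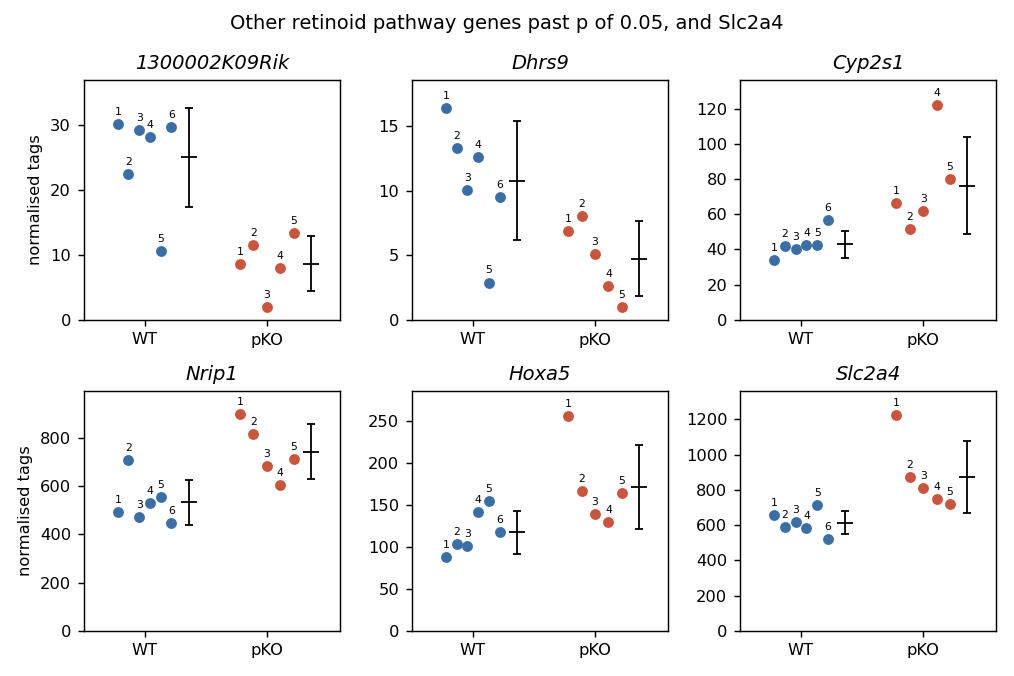
Normalised tags (y axes, linear and from 0) of the 5 other retinoid genes at an unadjusted p of at most 0.05 and of Slc2a4, in each WT mouse (blue) and pKO mouse (red), with the mean and SD of each genotype. In Slc2a4 the genotypes are apart, between 714.0 and 717, and in the other 5 genes they overlap.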

How the data were processed

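The authors isolated total RNA from eWAT with TRI Reagent, primed cDNA at the poly(A) tail, cut it with NlaIII, took tags with EcoP15I and sequenced 1 library per mouse on a SOLiD instrument. Tags were mapped with a modified SOLiD SAGE Analysis Software, and counts were analysed with DESeq, SAM, PAM and edgeR 3.2.3. The deposited values are a signal per gene, tag counts divided by a library size factor. The value of 1 tag was 0.836 to 1.19, and 100.0% of values were whole tags within 0.01 of a tag.

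Here log2(value + 1) was fitted by genotype over all 15453 genes with limma 3.58.1 (R 4.3.3; empirical Bayes with a trend), with Benjamini-Hochberg adjustment. No filter on low values was used. The deposited tables hold only genes with at least 15 tags over the 11 libraries. Single values were tested with two-sided exact permutation tests (scipy 1.17.1). edgeR 4.0.16 (quasi-likelihood) and DESeq2 1.42.0 were run on the recovered counts as alternatives, besides other scalings, pseudocounts of 0.5 and 10, a mean of at least 10, and leaving out each mouse. Scripts were tested on simulated data. P-values of genotype differences set the difference against the spread between these mice, and counting error leaves out duplicates made by PCR, since no molecular identifiers are named.

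The genes and lists were chosen with earlier results of these data known. Named were the chosen genes, Mest, Slc2a4, each other retinoid gene at an unadjusted p of at most 0.05, the most abundant gene of each role, the 5 genes most like Rbp4, and markers where their list is described. Ptdss1 was picked among those 5 and Ttr, Rbp2 and Cyp26a1 among the retinoid genes after their values were seen. Genes listed under older names (Bcmo1, Emr1, 1300002K09Rik) were matched through RefSeq synonyms.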

Additional observations from a re-analysis of the deposited data

Results flagged for a closer look

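Hoxa5 in pKO mice had 1 value far from the others. It was 256 normalised tags in pKO 1, against 130 to 166 in the other 4 pKO mice, a gap to the nearest value of 0.711 of the group's whole range, just past Dixon's 95% critical value for 5 samples. Among the 28 groups examined in this way (the 7 retinoid genes above the floor, the 5 other retinoid genes at an unadjusted p of at most 0.05, Mest and Slc2a4, each in both genotypes), 1 was past its limit, where chance alone gives about 1.4. Without pKO 1 the log2 difference of Hoxa5 was 0.37 and its unadjusted limma p was 0.060. Without WT 1 these were 0.45 and 0.0503.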

How the results depend on the processing

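The log2 differences of the 7 retinoid genes above the floor moved by less than 1 SD between mice in all 22 alternatives. For most of these it could not be otherwise. Leaving out a mouse cannot move a genotype mean by a whole such SD. Robust estimation, limma without the trend and a mean of at least 10 leave each difference as it was, and with it the sign. Rbp4, Aldh1a7, Aldh1a1 and Rbp7 kept their sign in all 22, Adh1 in 21, Dhrs3 in 17 and Rarb in 16. Counts of genes over the whole table moved more. At an adjusted p of at most 0.1, 1 gene was higher and 4 were lower in pKO mice in limma. The numbers were 63 and 75 in DESeq2, which also called 1 higher (Cyp2s1) and 1 lower (1300002K09Rik) of the 49 other retinoid genes, and 3 and 8 in limma without the trend. With a mean of at least 10, 8 genes were lower, and 1 of the 49 was lower at an unadjusted p of at most 0.05, because Dhrs9 was not kept. Leaving out a mouse gave 1 to 28 higher and 2 to 78 lower genes, both highest without pKO 2, and without WT 5 there were 4 and 10. Among the 49 it gave 1 to 4 lower at an unadjusted p of at most 0.05 (4 without pKO 3) and 2 to 4 higher. The cause was not tested. Mice with the same replicate number did not deviate together (r = -0.093 to 0.138 over 5 pairs). In a fit with the number as a replicate block, where WT 6 has no partner and drops out, 0 genes were higher and 1 was lower, and in the same 10 mice without the block, an alternative chosen after seeing the data, 2 were lower. The unadjusted limma p of Hoxa5 was above 0.05 under the block (0.061) and without WT 1 or pKO 1. Stra6, Rbp2 and Cyp26a1 were limited by depth.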
